A study of Rattus norvegicus with 9 samples.

Results

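The comparison described here set 3 left ventricular samples from rats with myocardial ischemia-reperfusion injury (IRI) against 3 from control rats, which are 6 of the 9 arrays of the study. The arrays were taken by their titles, the 3 IRI replicates and the 3 control replicates, and all 65403 probe sets measuring rat transcript clusters entered the comparison. The study asked which transcripts are involved in the protection of the rat heart by remote ischemic postconditioning (RPostC), and another group, IRI + RPostC, entered the same fit but is not described here.

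When a coronary artery is blocked, the heart muscle fed by it is cut off from oxygen and fuel, and the return of blood brings a second injury. Stressed and dying cells release signals that switch on immediate early transcription factors and NF-kB, which in turn drive cytokines, chemokines and adhesion molecules that call neutrophils and monocytes into the tissue. Healthy ventricular muscle burns mainly fatty acids in its mitochondria, a program held up by the coactivator PGC-1alpha, and it carries large amounts of sarcomere and calcium handling transcripts.

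All animals were male Wistar rats of 250 to 290 g. Rats of the IRI group had 45 min of blocked flow in the left anterior descending (LAD) coronary artery, then reopening and 15 min of stabilization before closure. Control rats, named Sham in the protocol, had the thread laid around the artery but never a block, with closure at 60 min, so both groups shared the anesthesia, the opened chest and the thread. A general part of the same protocol gives a ligation of 30 min, and the sources used here state neither the time between reopening of the artery and collection of the tissue for the arrays nor the region of the ventricle that was sampled. Whether each array stands for its own animal is not stated either, and the p-values below therefore reflect array-to-array spread, which may be technical.

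A log2 signal of 19 or more, close to the highest deposited value of 19.93, was reached by 1918, 1944 and 1948 probe sets on the IRI arrays and by 172, 167 and 166 on the control arrays. On all 3 IRI arrays and no control array it was reached by 1741 probe sets, of which 1725 had no gene symbol and 9 had a single protein-coding symbol. These 1741 probe sets had a median mean signal of 11.1 in the control group, with 6.46 and 15.0 as the 5th and 95th percentiles. The 95th percentile of the signals lay at 15.6 to 16.2 on the IRI arrays and at 9.38 to 10.02 on the control arrays for probe sets with no symbol, but at 9.04 to 9.21 and at 8.65 to 8.80 for protein-coding ones. Hybridization controls, which are added in known amounts and do not come from the heart, had mean log2 signals of 10.1 to 10.8 on the IRI arrays and 10.9 to 11.5 on the control arrays. The added poly-A controls had means of 5.15 to 5.62 on the IRI arrays and 5.77 to 6.30 on the control arrays. Differences of array processing and differences between the groups cannot be told apart, at the top of the scale or below it. Each direction below was therefore read as deposited, after quantile normalization of whole arrays and after quantile normalization of the protein-coding genes alone.

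**Figure D1:**
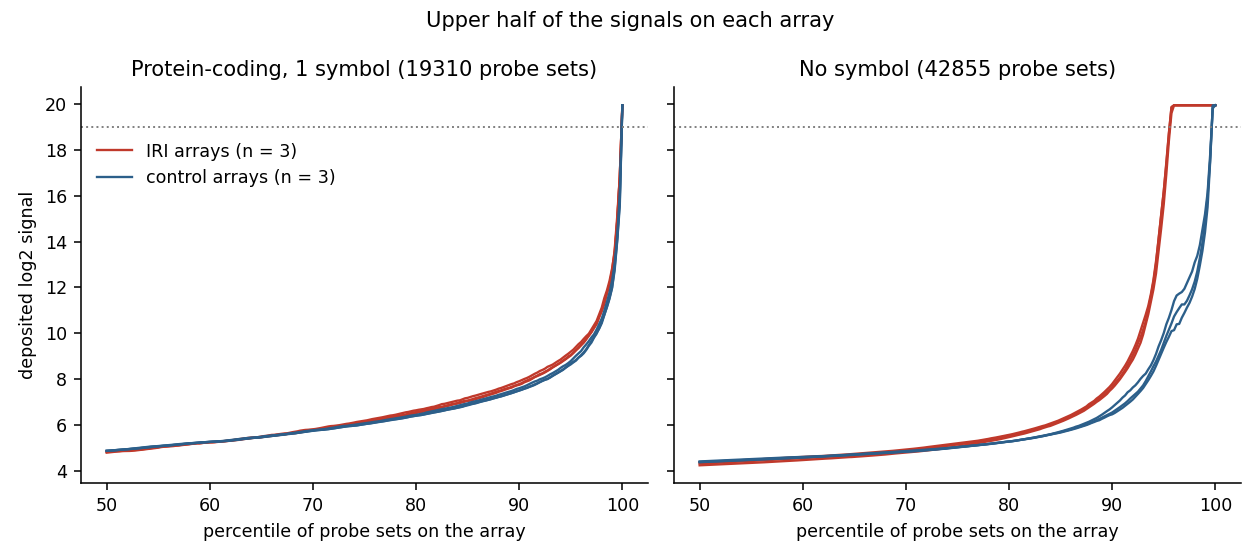
Deposited log2 signal (y axis) at each percentile of the probe sets of an array (x axis), for protein-coding probe sets with 1 symbol and for probe sets with no symbol, with a line for each of the 3 IRI arrays and 3 control arrays and a dotted line at 19. The curves of the groups lie close together for protein-coding probe sets, and for probe sets with no symbol the IRI curves reach the top of the scale while the control curves stay far below it up to the last percentiles.

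Of all 65403 probe sets, 9.95% were higher and 6.26% lower in the IRI group at an adjusted p under 0.05 from limma, and 7.43% and 1.95% also differed by at least 1 on the log2 scale. Among 18259 protein-coding genes, 1760 were higher and 1729 were lower at the same threshold, which is 9.64% and 9.47% of the genes tested. A difference of at least 1 on the log2 scale was also held by 793 of the higher genes and 422 of the lower ones, 4.34% and 2.31%. Whole-array quantile normalization gave 847 genes higher and 4589 lower (4.64% and 25.1%), and quantile normalization of protein-coding genes alone gave 2110 and 2965 (11.6% and 16.2%). The share of higher genes among those called was 50.4% as deposited, 15.6% and 41.6% under these normalizations, and 63.4% when arrays were centred on their medians. No gene lower as deposited turned, whereas 212 genes called higher as deposited were called lower after whole-array quantile normalization and 4 after that of the protein-coding genes alone. Both quantile normalizations lowered bright genes in the IRI group. Gapdh, identical on all 6 arrays as deposited, stood at -3.10 and -0.79 under them, so a kept fall of a bright gene is a weak check. The median difference of all protein-coding genes was -0.02. Genes near the background limit were called less often. With a control mean of 4 to 5 the shares higher and lower were 1.82% and 4.38%. They were 22.4% and 16.5% at 6 to 8, and 23.0% and 22.2% at 8 to 10. All 3 IRI arrays stood above all 3 control arrays in 15.1% of protein-coding genes and below them in 18.1%, so a lack of overlap alone was common.

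**Figure D2:**
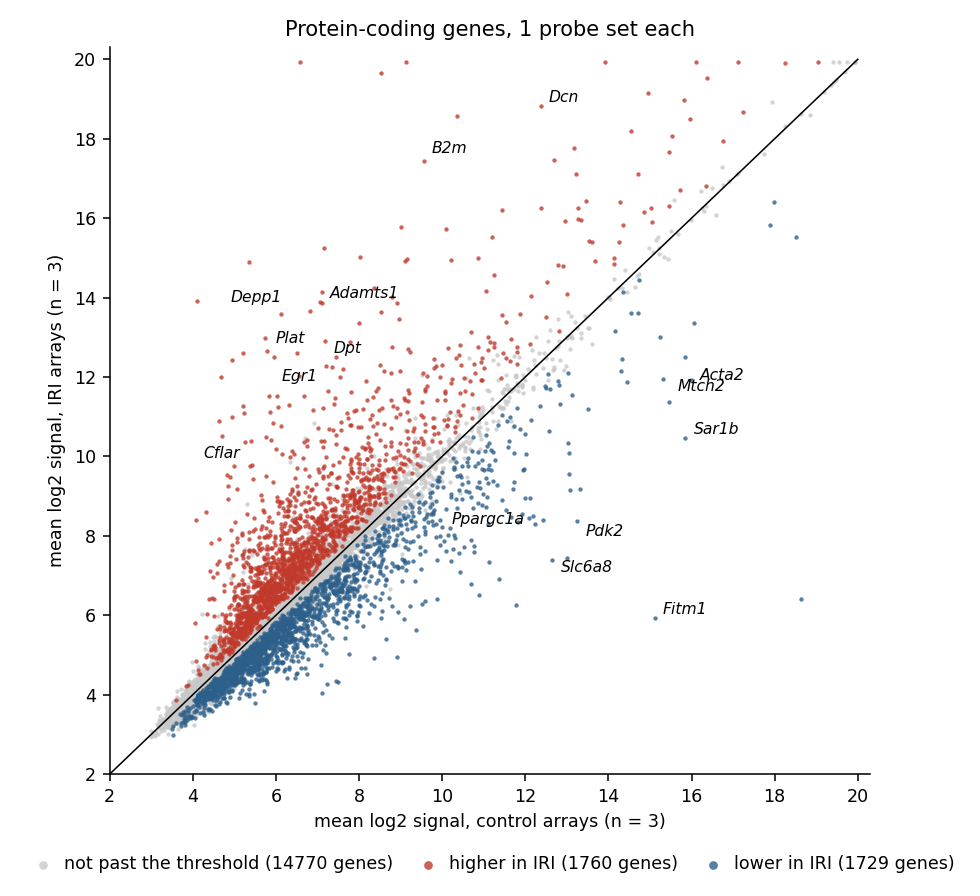
Mean deposited log2 signal of the 3 IRI arrays (y axis) against that of the 3 control arrays (x axis) for each protein-coding gene, with genes higher in IRI in red (1760), lower in blue (1729) and the rest in grey. Plat, Depp1, B2m and Adamts1 stand far above the line of equal signal, and Fitm1, Pdk2, Slc6a8 and Sar1b far below it.

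Immediate early genes, which cells transcribe within minutes of a stimulus without new protein synthesis, were higher for most members in the IRI hearts. Of 29 measured, 17 were higher and 0 lower, with a median difference of 0.95. Egr1, a zinc finger transcription factor, had log2 signals of 12.29, 12.29 and 12.90 on the IRI arrays, against 5.35, 6.13 and 6.34 on the control arrays. The difference of 6.55 (standard error 0.31, adjusted p = 4.6e-06 from limma) was many times the spread within either group. Fos, a subunit of the AP-1 factor, had 9.87, 9.99 and 13.12 in IRI, against 4.69, 4.97 and 5.13 in control. IRI replicate 3 was the high array of its group for Fos, and the lowest IRI array still stood far above every control array (difference 6.06, standard error 0.94, adjusted p = 0.00388 from limma). Ccn1, a matrix-associated signaling protein, reached 13.27, 12.86 and 13.95 in IRI, against 7.82, 7.99 and 8.21 in control.

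The nuclear receptors Nr4a1, Nr4a2 and Nr4a3 were higher by 1.72, 1.64 and 2.09 on the log2 scale, and the growth regulator Myc by 1.85. Zfp36, which destabilizes cytokine mRNAs, had 8.397, 8.51 and 9.004 in IRI and 6.93, 5.80 and 6.15 in control, without overlap. Atf3, a stress-induced repressor, was higher by 2.22 (adjusted p = 0.0154 from limma), a call that was lost without control replicate 3 (adjusted p = 0.0534). The Fos relatives Fosb and Fosl1 did not pass the test, with a difference of 1.48 for Fosb and no control array above background for Fosl1. The list kept 13 to 16 higher members when any single array was left out, and it held 15 higher and 2 lower after whole-array quantile normalization and 19 higher and 0 lower after that of the protein-coding genes.

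The promoters of 5 induced genes are shown because the letters searched in them are those bound by the serum response factor, NF-kB, CREB and AP-1. Each is 300 bases around the annotated start site from RefSeq, assembly GRCr8, written 5' to 3' on the strand of the gene. Capitals mark every match to the CArG box, to the NF-kB motif (GGGA, any base, TTTCC), to TGACGTCA (CRE) or to TGANTCA (AP-1), searched on both strands. The genes lie at chr18:26736828-26737127 (Egr1, plus strand), chr4:5894526-5894825 (Il6, minus strand), chr14:17479272-17479571 (Cxcl1, minus strand), chr6:78597023-78597322 (Nfkbia, minus strand) and chr1:15543930-15544229 (Tnfaip3, minus strand).
Egr1: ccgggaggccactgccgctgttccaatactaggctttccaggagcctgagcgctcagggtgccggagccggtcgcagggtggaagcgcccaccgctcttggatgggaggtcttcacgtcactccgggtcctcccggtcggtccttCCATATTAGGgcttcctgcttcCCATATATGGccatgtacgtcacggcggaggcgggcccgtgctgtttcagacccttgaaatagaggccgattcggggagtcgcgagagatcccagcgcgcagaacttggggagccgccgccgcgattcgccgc
Il6: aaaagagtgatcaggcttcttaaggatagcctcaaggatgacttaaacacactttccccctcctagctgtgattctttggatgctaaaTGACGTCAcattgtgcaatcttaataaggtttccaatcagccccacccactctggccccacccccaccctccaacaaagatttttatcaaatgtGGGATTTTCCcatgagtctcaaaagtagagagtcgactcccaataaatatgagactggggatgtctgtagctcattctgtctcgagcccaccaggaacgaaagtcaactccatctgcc
Cxcl1: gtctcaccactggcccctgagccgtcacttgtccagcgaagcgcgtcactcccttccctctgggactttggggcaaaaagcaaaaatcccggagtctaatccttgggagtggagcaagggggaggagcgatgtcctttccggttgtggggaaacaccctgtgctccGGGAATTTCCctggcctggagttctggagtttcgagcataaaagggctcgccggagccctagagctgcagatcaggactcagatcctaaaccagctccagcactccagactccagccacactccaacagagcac
Nfkbia: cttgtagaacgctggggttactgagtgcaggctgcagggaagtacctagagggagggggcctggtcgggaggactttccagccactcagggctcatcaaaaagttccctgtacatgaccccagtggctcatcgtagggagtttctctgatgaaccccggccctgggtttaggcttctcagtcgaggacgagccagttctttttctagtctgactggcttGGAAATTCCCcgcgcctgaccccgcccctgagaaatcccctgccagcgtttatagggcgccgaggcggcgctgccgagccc
Tnfaip3: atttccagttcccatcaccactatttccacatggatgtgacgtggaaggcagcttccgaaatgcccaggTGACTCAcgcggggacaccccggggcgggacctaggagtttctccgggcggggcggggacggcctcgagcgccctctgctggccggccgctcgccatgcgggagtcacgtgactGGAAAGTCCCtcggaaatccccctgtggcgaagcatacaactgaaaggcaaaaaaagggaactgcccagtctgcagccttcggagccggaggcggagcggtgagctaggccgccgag

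Egr1 held a CArG box from -105 to -96 and another from -83 to -74, counted from the start site. Il6 held a CRE from -162 to -155 and an NF-kB match from -68 to -59. Cxcl1 held an NF-kB match from -84 to -75. On the opposite strand, Nfkbia held an NF-kB match from -31 to -22 and Tnfaip3 held another from -67 to -58, with an AP-1 match from -181 to -175. These are matches of letters and not measured binding. Of 27457 RefSeq promoters of this length, 0.371% held the NF-kB letters, 7.33% those of AP-1, 1.91% the CRE and 1.64% a CArG box. The NF-kB letters stood in 4 of the 9 promoters available for the higher members of the NF-kB list, and a CArG box in 3 of the 11 available for the higher immediate early genes. The NF-kB letters stood in 1 of 8 promoters of higher chemokines, 0 of 8 of higher IL-6 family genes and 0 of 11 of higher immediate early genes, and none of these 11 held the AP-1 letters. Of the genes chosen for the largest differences, 3 of 10 promoters of higher genes and 0 of 12 of lower genes held the NF-kB letters, and none of either held a CArG box. The motifs and the genes were chosen with their differences known.

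NF-kB is held in the cytoplasm by inhibitors whose own genes it switches on, so its subunits and its feedback inhibitors are read together. Of 21 measured, 10 were higher and 0 lower in the IRI group. Nfkb1, which encodes the p50 subunit, had 8.06, 8.05 and 8.07 on the IRI arrays, against 6.21, 6.25 and 6.10 on the control arrays. The difference of 1.87 had a standard error of 0.05 (adjusted p = 5.3e-07 from limma). Nfkbiz, an inducible nuclear cofactor of NF-kB, had 7.86, 8.22 and 8.66 in IRI, against 5.78, 5.76 and 5.43 in control. Tnfaip3, the ubiquitin-editing enzyme A20 that shuts the pathway off, had 7.48, 9.60 and 9.73 in IRI and 4.85, 5.19 and 4.52 in control, with IRI replicate 1 the lowest of its group and still above every control array. Rel and Birc2 were higher by 1.85 and 1.52. Counts were 6 higher and 3 lower after whole-array quantile normalization and 10 and 1 after that of the protein-coding genes, and leaving out any single array left 7 to 9 higher.

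Of the 26 cytokines measured other than chemokines, 3 were higher, 11.5% against 9.64% of all protein-coding genes, and 0 lower. Il6, the main inducer of the acute phase response, had 11.73, 13.44 and 16.60 on the IRI arrays and 4.32, 4.41 and 3.55 on the control arrays. No control array was above the background limit of 4.93, the 95th percentile of 1349 odorant, vomeronasal and taste receptor probe sets, so only a bound holds for Il6, at least 510-fold higher in IRI (adjusted p = 0.00082 from limma). The IRI arrays spread widely, with IRI replicate 3 the highest. Ifng, interferon-gamma, passed the test with no control array above the background limit, so its difference is only bounded, at 0.015 or more, and its call was lost when any array other than IRI replicate 1 was left out. Csf1, the growth factor of macrophages, had 8.02, 8.02 and 8.84 in IRI and 6.29, 5.90 and 6.17 in control. Il1b, an early inflammatory cytokine, had 6.04, 7.48 and 8.85 in IRI and 5.70, 5.57 and 5.77 in control, a difference of 1.78 that did not pass the test (adjusted p = 0.195 from limma) although the arrays did not overlap. Another 14 of the 26 were not above the background limit on any of the 6 arrays.

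Chemokines, the small proteins that direct leukocytes into tissue, were higher for 11 of 30 members and lower for 2. Ccl2, which attracts monocytes, had 14.19, 13.57 and 16.92 in IRI, against 5.04, 5.54 and 5.49 in control. The difference of 9.54 (standard error 0.82, adjusted p = 0.000164 from limma) is a 742-fold higher signal. Cxcl1, which attracts neutrophils, had 12.02, 13.66 and 15.30 in IRI, against 6.57, 6.96 and 6.92 in control. Its difference was 6.84 (standard error 0.78, adjusted p = 0.000765 from limma). Cxcl9, an interferon-gamma target that attracts T cells, had 9.84, 9.84 and 11.77 in IRI and 5.66, 5.73 and 5.86 in control. For these 3 chemokines the IRI arrays stood far above the control arrays, with IRI replicate 3 the highest. The lower members were Ccl11 and Cxcl14, at -0.97 and -0.42, and the call of each was lost on leaving out any of at least 5 arrays. The count of higher chemokines was 7 without IRI replicate 1, control replicate 1 or control replicate 3 and 6 without control replicate 2, so several weaker members depended on single arrays. Ccl2, Cxcl1 and Cxcl9 held their direction under every normalization, and the list held 13 higher and 2 lower after quantile normalization of the protein-coding genes.

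**Figure D3:**
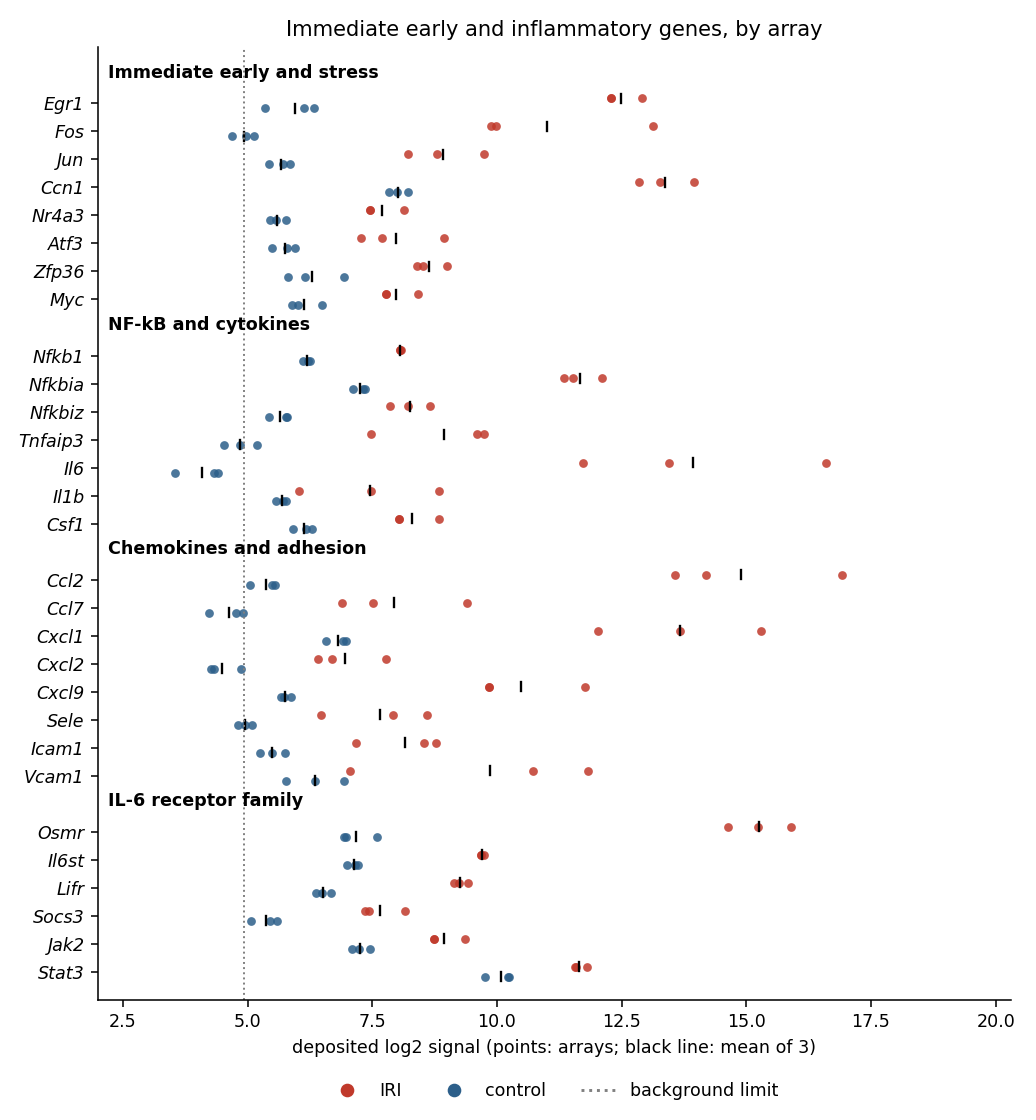
Deposited log2 signal (x axis) on each of the 3 IRI arrays (red) and 3 control arrays (blue) for immediate early, NF-kB, cytokine, chemokine, adhesion and IL-6 receptor genes, with a black line at each group mean and a dotted line at the background limit of 4.93. The red points lie to the right of the blue points for every gene, closely spaced for Nfkb1 and Il6st and widely spread for Il6, Il1b and Vcam1.

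Cytokines of the IL-6 family act through receptors that pair with gp130 and signal by JAK and STAT proteins. Of 20 measured genes of these receptors and their feedback, 10 were higher and 1 lower. Osmr, the receptor of oncostatin M, had 15.22, 14.64 and 15.89 in IRI, against 7.59, 6.94 and 6.97 in control, a 271-fold higher signal (difference 8.08, standard error 0.35, adjusted p = 2.88e-06 from limma). Its partner gp130, encoded by Il6st, had 9.69, 9.69 and 9.74 in IRI and 7.21, 6.998 and 7.16 in control. Lifr, the receptor of leukemia inhibitory factor, had 9.42, 9.14 and 9.23 in IRI and 6.67, 6.49 and 6.36 in control. All 3 receptors differed without overlap and kept their direction under both quantile normalizations. The feedback inhibitor Socs3 was higher by 2.29 (adjusted p = 0.00137 from limma), and Jak2 by 1.69. Stat3 was higher by 1.58 as deposited and by 1.11 after quantile normalization of the protein-coding genes, but stood at -2.01 after that of whole arrays. The lower member was Pias1, an inhibitor of STAT proteins, at -0.81. Whole-array quantile normalization gave 7 higher and 4 lower and that of the protein-coding genes 11 and 4, and without control replicate 2 the lower count was 3.

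The tissue was checked against markers of the cells it could hold. Actc1, Mb and Tnnc1, abundant in heart muscle, stood at 19.93 on all IRI arrays, and Actc1 and Mb also on all control arrays. Of the atrial markers Sln was below the background limit on all 6 arrays, and Myl7 had 5.26, 5.54 and 7.07 in IRI and 5.17, 5.23 and 5.17 in control, with IRI replicate 3 apart. The summed linear signal of the 7 atrial markers, on the log2 scale, was 12.96 to 14.22 in IRI and 12.86 to 13.28 in control. Nearly all of that sum was Nppa, with 12.93, 13.45 and 14.20 in IRI and 13.24, 13.25 and 12.82 in control, so it says little about the other markers.

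Of the 18 neutrophil markers measured, 5 were higher and 0 lower. S100a9, a subunit of calprotectin, had 7.71, 8.11 and 8.69 in IRI and 5.64, 5.65 and 5.60 in control. Mmp8, the neutrophil collagenase, had 7.66, 7.74 and 8.32 in IRI and 5.36, 5.35 and 5.31 in control. S100a8, Lcn2 and Ncf1 were higher by 0.95, 1.42 and 0.68. The granule genes Mpo, Elane, Camp, Ltf and Cd177 were below the background limit on all 6 arrays, as was Mmp9, and 9 of the 18 markers in all were so. The summed signal of the list was 9.97 to 10.32 in IRI and 8.95 to 8.99 in control. All 5 calls held when any single array was left out and after both quantile normalizations the 5 differences were positive. In bulk tissue, more cells of a type and more RNA per cell cannot be told apart, and the part of such cells in the inflammatory differences was not tested.

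Monocyte and macrophage markers were mixed, with 5 of 22 higher and 1 lower, and 3 higher without IRI replicate 1 or 2. The 5 and 1 are 22.7% and 4.55%, against 13.6% and 11.6% of protein-coding genes with a control mean of 5 to 6. The lower member, Siglec1, was below the background limit on all 6 arrays. Cd74, of antigen presentation, was higher by 1.23, Clec7a, a receptor of fungal glucans, by 1.46, and Lyve1, of resident macrophages and lymphatic vessels, by 1.47. Cd68 and Adgre1, both general macrophage markers, differed by 0.12 and -0.04 and did not pass the test, and the summed signal was 10.73 to 11.20 in IRI and 10.18 to 10.33 in control. Ptprc, the leukocyte antigen CD45, had 7.73, 8.37 and 7.73 in IRI and 6.18, 6.01 and 5.72 in control (difference 1.97, adjusted p = 0.000427 from limma). Among 18 lymphocyte and natural killer cell markers, 10 were not above the background limit on any array, including Cd3e and Ms4a1, and Gzma alone was higher, by at least 0.67 with no control array above the limit, a call lost on leaving out any of 4 arrays.

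Endothelial markers were higher for 10 of 17 members and lower for 1, and 6 were higher without control replicate 3. Pecam1, the junction protein CD31, had 15.22, 13.85 and 13.32 in IRI, against 7.79, 6.59 and 6.97 in control. Emcn, a surface mucin of capillaries and veins, had 11.04, 10.19 and 10.80 in IRI and 7.35, 7.60 and 6.84 in control, and Eng, a coreceptor of TGF-beta, 11.68, 11.25 and 11.29 in IRI and 8.68, 8.499 and 9.14 in control. These 3 markers differed without overlap, by 7.01, 3.41 and 2.63. The summed signal of the list was 14.60 to 16.10 in IRI and 13.14 to 13.52 in control, and IRI replicate 1 was the highest array for each of these 3 genes. After whole-array quantile normalization 6 were higher and 4 lower, and after that of the protein-coding genes 9 and 1.

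Of 18 genes of endothelial activation and angiogenic factors, 4 were higher and 3 lower, with a median difference of -0.07, 2 higher and 7 lower after whole-array quantile normalization and 5 and 4 after that of the protein-coding genes. As deposited that is 22.2% and 16.7%. Protein-coding genes with a control mean of 5 to 6 had 13.6% and 11.6%, and those at 6 to 8 had 22.4% and 16.5%. The median control mean of the list was 5.69. The higher members were Sele, Icam1, Angpt2 and Vegfa, and the lower ones Angptl4, Vegfb and Aplnr. Sele, E-selectin, which activated endothelium shows to leukocytes, had 6.46, 7.90 and 8.60 in IRI and 4.95, 5.09 and 4.80 in control (difference 2.71, adjusted p = 0.0118 from limma). Icam1 had 7.17, 8.54 and 8.77 in IRI and 5.74, 5.49 and 5.25 in control (difference 2.66, adjusted p = 0.0098 from limma). Vcam1 had 7.05, 10.71 and 11.83 in IRI and 6.93, 6.36 and 5.76 in control, and its difference of 3.51 did not pass the test (adjusted p = 0.123 from limma). IRI replicate 1 was the lowest and IRI replicate 3 the highest of the IRI arrays for all 3 adhesion genes, and also for Il6, Il1b and Cxcl1. Angptl4, Vegfb, a vascular growth factor, and Aplnr, the apelin receptor, were at -1.68, -0.49 and -0.65, and the call of Aplnr was lost without control replicate 3 and that of Angpt2 on leaving out any array except IRI replicate 2.

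Genes that control clotting and its removal had the highest share of higher members among the lists as deposited, 14 of 20 with 0 lower and a median difference of 1.10. Plat, the tissue plasminogen activator that starts clot dissolution, had 12.66, 12.49 and 12.79 in IRI, against 5.67, 5.91 and 5.81 in control. The groups were tight and far apart, a 116-fold higher signal (difference 6.85, standard error 0.11, adjusted p = 2.37e-08 from limma). Anxa2 and S100a10, which form the complex that holds plasminogen and its activator on the cell surface, were higher by 3.52 and 4.46. F3, tissue factor, which starts coagulation, was higher by 1.19, and its inhibitor Tfpi by 2.00. Thbs1, which encodes the platelet and matrix protein thrombospondin 1, had 19.46, 19.60 and 19.91 in IRI, all above the limit of 19, and 8.48, 9.08 and 8.02 in control. Fgl2, a membrane-bound prothrombinase, had 12.48, 11.57 and 13.73 in IRI and 5.41, 5.20 and 5.04 in control. The count of 14 became 8 without IRI replicate 1 and 9 without IRI replicate 3 or any control replicate, when weaker members such as Plaur and Thbd lost their calls, while Plat, Anxa2, S100a10, Thbs1, F3 and Tfpi kept theirs. Whole-array quantile normalization gave 11 higher and 1 lower, and that of the protein-coding genes 13 and 1.

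Among 27 matrix proteases and their inhibitors 7 were higher and 2 lower, with 4 higher without control replicate 2. The 7 and 2 are 25.9% and 7.41%, against 9.64% and 9.47% of all protein-coding genes. Adamts1, a secreted protease that cleaves versican, had 13.47, 13.47 and 14.74 in IRI, against 6.84, 7.04 and 7.28 in control. Adamts9 had 14.65, 13.75 and 13.65 in IRI, against 8.70, 8.82 and 8.83 in control. Timp1, an inhibitor of matrix metalloproteinases, had 9.88, 9.88 and 11.44 in IRI, against 5.69, 6.22 and 5.70 in control. The differences of 6.84, 5.24 and 4.53 had the same sign under both quantile normalizations. Adamts5, another protease of this family, was lower, at -0.57. The other lower member, Mmp16, was below the background limit on all 6 arrays. Whole-array quantile normalization gave 6 proteases and inhibitors higher and 7 lower, and that of the protein-coding genes 7 and 2.

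Collagen and matrix genes were higher for 20 of 33 members and lower for 1 as deposited, but whole-array quantile normalization placed 6 higher and 10 lower and that of the protein-coding genes 18 and 4. Lamc1 and Lamb1, chains of the laminins of basement membranes, were higher by 2.51 and 1.43, and the versican gene Vcan, a target of Adamts1, by 3.69. Col3a1, of fibrillar collagen, had 8.89, 8.54 and 8.54 in IRI and 7.41, 7.49 and 7.11 in control. Col1a1, the main fibrillar collagen of scar, had a difference of 0.02 as deposited and of -0.50 and -0.17 under the normalizations, and did not pass the test as deposited. Bgn, the small proteoglycan biglycan, was the lower member, with 13.88, 12.88 and 13.29 in IRI and 16.30, 15.64 and 16.21 in control. Of 18 fibroblast markers 10 were higher and 2 lower, with 4 and 6 after whole-array quantile normalization and 8 and 3 after that of the protein-coding genes. Dpt, dermatopontin, had 12.91 on all 3 IRI arrays and 7.27, 6.93 and 7.36 on the control arrays (difference 5.72, standard error 0.16, adjusted p = 3.85e-07 from limma). A value repeated on all arrays, as for Dpt in IRI, gives no measure of error. Of 18259 protein-coding genes, 4050 had a value repeated on the 3 IRI arrays, and B2m, Ttn, Cd36, Hba-a1 and Sdhc, described below, are among them. They stood at all levels, 3335 of 13217 genes at an IRI mean of 2 to 6 and 612 of 4473 at 6 to 10. The share was largest for bright genes, 17 of 31 at 16 to 18 and 28 of 32 at 18 to 20. Nr4a1, Cxcl14 and Trdn also had a value repeated on the 3 IRI arrays. Some values repeat on part of a group only, as 12.29 for Egr1 and 8.02 for Csf1 in IRI. The spread may be understated there. Whether repeated values under 19 are also saturated was not tested.

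Sarcomere genes, which build the contractile units, are among the most abundant transcripts of heart muscle, and 4 of the 28 measured were at 19 or more on all IRI arrays. Of the 28 sarcomere and Z-disc genes, 17 were higher and 1 lower as deposited, against 1 higher and 21 lower after whole-array quantile normalization and 11 higher and 8 lower after that of the protein-coding genes. Myh7, the slow myosin heavy chain, stood at 19.93 on all IRI arrays and at 17.30, 17.34 and 16.69 on the control arrays. Ttn, the giant spring protein titin, had 18.97 on each IRI array and 16.04, 15.58 and 15.82 on the control arrays, a difference of 3.16 as deposited, of -2.19 after whole-array quantile normalization and of 1.90 after that of the protein-coding genes. Tnnt2, cardiac troponin T, had 18.31 on each IRI array and 18.27, 18.29 and 18.20 on the control arrays, and its difference of 0.06 did not pass the test.

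A few muscle genes differed in the same direction under all scalings. Xirp2, an actin-binding protein of the intercalated disc, had 15.49, 15.09 and 16.78 in IRI, against 9.44, 9.26 and 8.33 in control. Pdlim3, a Z-disc protein that binds alpha-actinin, had 16.10, 14.50 and 14.50 in IRI, against 8.02, 8.002 and 8.01 in control, a 130-fold higher signal. Tcap, the titin cap, had 13.92, 13.91 and 13.76 in IRI and 9.95, 9.31 and 7.46 in control. For Xirp2, Pdlim3 and Tcap every IRI array stood above every control array, by 6.78, 7.02 and 4.96 in the means. Myot, myotilin of the Z-disc, was lower, at -1.53. Rcan1, the inhibitor of calcineurin, was higher by 3.52. Nppb, the B-type natriuretic peptide released on wall stress, had 9.83, 12.41 and 13.92 in IRI and 9.63, 9.58 and 9.33 in control, and its difference of 2.54 did not pass the test (adjusted p = 0.131 from limma). Nppa differed by 0.42 with overlapping arrays, which turned to -5.20 and -0.29 under the quantile normalizations.

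Calcium handling and ion channel genes were lower for 8 of 29 members and higher for 2. That is 27.6% and 6.90%, against 16.5% lower and 22.4% higher of protein-coding genes with a control mean of 6 to 8. The median control mean of the list was 7.31. At a control mean of 10 to 12, where Cacna1c, Srl and Fxyd1 stood, 33.3% of protein-coding genes were lower and 21.6% higher. Cacna1c, the pore of the L-type calcium channel, had 9.89, 9.47 and 8.50 in IRI and 10.81, 11.27 and 11.89 in control (difference -2.04, adjusted p = 0.0159 from limma). Srl, sarcalumenin of the sarcoplasmic reticulum, had 9.52, 9.76 and 9.76 in IRI and 11.14, 11.22 and 10.90 in control. Fxyd1, phospholemman, which regulates the sodium pump, was lower, at -1.02, as was the potassium channel gene Kcnd2, at -0.74. Trdn, triadin, which anchors calsequestrin, was higher by 1.63 and Hrc, a calcium-binding protein of the reticulum, by 1.03. No lower member turned under either quantile normalization, which gave 17 lower and 0 higher, and 13 lower and 2 higher. As both normalizations lowered bright genes in IRI, this says little about the bright members. Among 15 smooth muscle and pericyte markers, Acta2, smooth muscle actin, alone passed the test, with 11.54, 10.79 and 13.47 in IRI and 16.04, 16.04 and 15.92 in control, while Myh11 had a difference of 1.12 that did not pass.

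**Figure D4:**
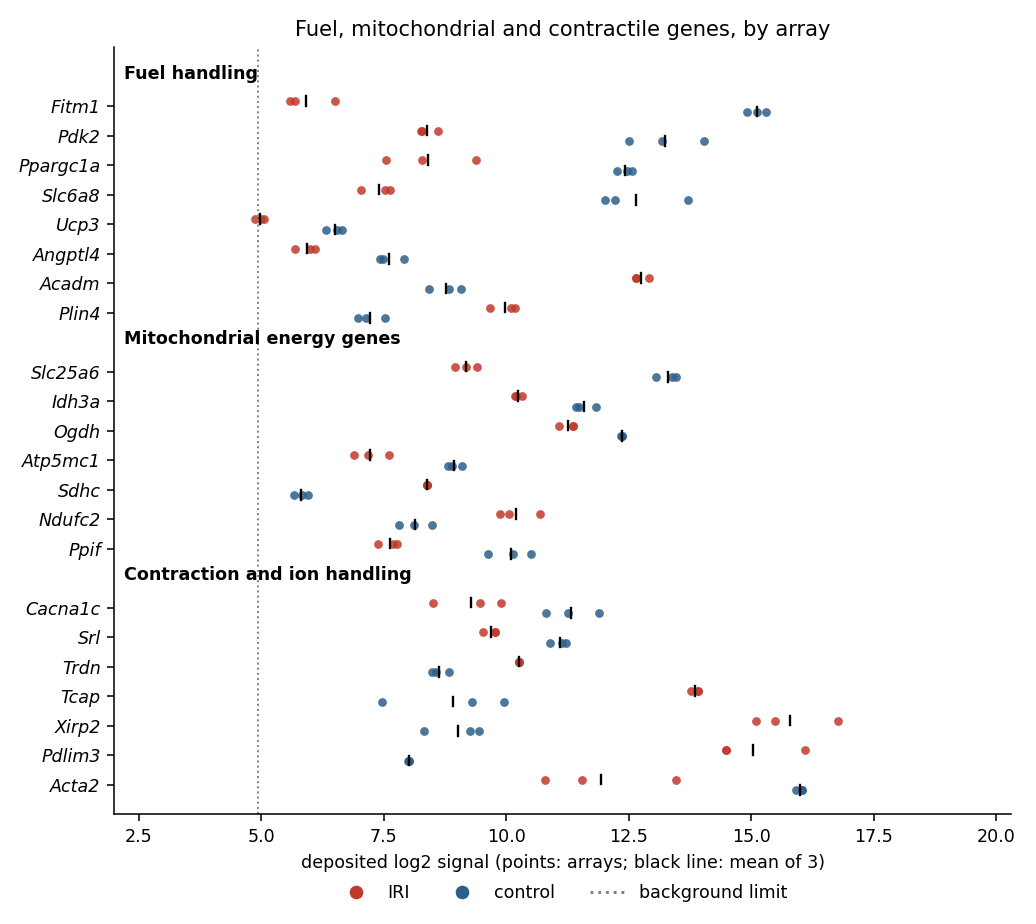
Deposited log2 signal (x axis) on each of the 3 IRI arrays (red) and 3 control arrays (blue) for genes of fuel handling, mitochondrial energy production and contraction, with a black line at each group mean and a dotted line at the background limit of 4.93. Fitm1, Pdk2, Ppargc1a, Slc6a8 and Slc25a6 have their red points far to the left of the blue points, while Acadm, Plin4, Sdhc, Tcap, Xirp2 and Pdlim3 have them to the right.

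Genes of fatty acid uptake, storage and oxidation moved in both directions, 7 higher and 11 lower of 42. That is 16.7% and 26.2%, near the 23.0% and 22.2% of protein-coding genes with a control mean of 8 to 10. The median control mean of the list was 8.86. Fitm1, a protein of the endoplasmic reticulum that packages fat into lipid droplets in muscle, had 5.58, 6.49 and 5.68 in IRI, against 15.31, 15.12 and 14.92 in control. The signal was 585-fold lower in IRI (difference -9.19, standard error 0.26, adjusted p = 4.24e-07 from limma). Pdk2, a kinase that restrains the use of pyruvate, had 8.26, 8.61 and 8.28 in IRI, against 12.50, 13.19 and 14.04 in control. Ppargc1a, which encodes PGC-1alpha, had 9.39, 8.29 and 7.55 in IRI, against 12.26, 12.46 and 12.57 in control, a 16.3-fold lower signal (difference -4.02, standard error 0.45, adjusted p = 0.00072 from limma). In these 3 genes every IRI array stood below every control array. Ucp3, the muscle uncoupling protein, and Angptl4, an inhibitor of lipoprotein lipase, were lower, at -1.54 and -1.68.

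On the other side, Acadm, the medium-chain acyl-CoA dehydrogenase, had 12.66, 12.91 and 12.66 in IRI and 8.83, 9.08 and 8.43 in control. Plin4, a lipid droplet coat protein, had 10.09, 10.17 and 9.66 in IRI and 7.52, 6.97 and 7.14 in control. Both were higher under every scaling. Cd36, the fatty acid transporter, had 18.18 on each IRI array and 14.93, 14.55 and 14.13 in control, a difference of 3.64 as deposited and 2.46 after quantile normalization of the protein-coding genes that turned to -2.32 after that of whole arrays. Cpt1b, which admits long-chain fatty acids to mitochondria, differed by 0.21 with overlapping arrays, and by -3.09 and -0.19 under the normalizations. The count of lower members was 7 without IRI replicate 1, 2 or 3 or control replicate 1, when calls such as that of Etfa were lost, and the normalizations gave 31 lower and 2 higher for whole arrays and 19 lower and 6 higher for the protein-coding genes.

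For oxidative phosphorylation and the tricarboxylic acid cycle the split of calls depended on the scaling, with 16 higher and 10 lower of 57 as deposited, 2 higher and 44 lower after whole-array quantile normalization and 10 higher and 35 lower after that of the protein-coding genes. Without IRI replicate 2 the count as deposited was 10 higher. With all arrays, 28.1% were higher and 17.5% lower as deposited, against 23.0% and 22.2% of protein-coding genes with a control mean of 8 to 10. All 10 lower members kept their sign under both quantile normalizations, a weak check for bright genes. Among them were the cycle enzymes Idh3a (-1.35) and Ogdh (-1.09) and the membrane subunit of ATP synthase Atp5mc1, with 7.18, 7.60 and 6.89 in IRI and 9.10, 8.82 and 8.88 in control. Of the 16 higher members, 7 kept their sign under both. Among these were Sdhc, an anchor of succinate dehydrogenase, with 8.38 on each IRI array and 5.83, 5.95 and 5.66 in control, and Ndufc2 of complex I, at 2.06. Slc25a6, an ADP/ATP carrier of the inner membrane, had 9.19, 8.95 and 9.40 in IRI and 13.46, 13.39 and 13.06 in control. Mtch2, a protein of the outer membrane, had 10.84, 11.74 and 11.49 in IRI and 15.47, 15.47 and 15.46 in control. Slc6a8, which brings creatine into the cell for the phosphocreatine energy store, had 7.63, 7.03 and 7.53 in IRI and 12.03, 12.21 and 13.71 in control. These 3 carriers and membrane proteins were lower without overlap, at -4.13, -4.10 and -5.25.

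Transcripts of the mitochondrial genome itself lay at the top of the scale. Of 40 probe sets whose identifiers place them there, 31 were at 19 or more on all IRI arrays and 5 on all control arrays, and 24 were higher and 0 lower. COX1, a subunit of cytochrome c oxidase, stood at 19.93 on each IRI array and at 19.84, 12.25 and 12.49 on the control arrays. COX2 and COX3, further subunits, also stood at 19.93 on each IRI array, with 19.70, 11.99 and 12.52 for COX2 and 19.18, 11.86 and 11.24 for COX3 on the control arrays. Control replicate 1 thus stood with the IRI arrays for these genes, and it was more than 3 above both other control arrays for 12 of the 40 probe sets.

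Ribosomal protein genes were higher for 16 of 46 and lower for 2 as deposited, 15 and 12 after quantile normalization of the protein-coding genes and 2 and 30 after that of whole arrays. Rps4x, with 11.72, 11.28 and 11.28 in IRI and 8.53, 7.87 and 8.19 in control, and Rplp2, with 11.20, 10.50 and 10.50 in IRI and 8.23, 7.81 and 8.12 in control, kept a positive difference in all 3, though ribosomal genes have many near-identical copies that share probes. Of 34 proteasome genes 9 were higher and 7 lower, and the normalizations gave 2 and 25, and 7 and 20. As deposited that is 26.5% and 20.6%, near the 23.0% and 22.2% of protein-coding genes with a control mean of 8 to 10. Psmd8 and Psmd11, of the regulatory particle, were lower, at -0.84 and -1.26, and Psmb3, of the catalytic core, was higher by 2.25.

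Cell death and survival genes were higher for 12 of 34 members and lower for 3, with 10 to 12 higher when any single array was left out. Survival factors were among them. Mcl1, of the BCL2 family, had 13.70, 13.40 and 13.78 in IRI, against 8.18, 9.24 and 8.19 in control. Cflar, an inhibitor of caspase 8, had 9.74, 9.74 and 9.77 in IRI, against 5.51, 5.38 and 5.20 in control. Casp4, an inflammatory caspase that senses lipopolysaccharide, had 9.51, 9.54 and 8.70 in IRI and 4.79, 4.83 and 4.91 in control, where no array was above the background limit, so the difference is at least 4.32. The differences of Mcl1 and Cflar were 5.09 and 4.39 (adjusted p = 1.88e-05 and 1.42e-06 from limma). Tnfrsf1a and Tnfrsf1b, which encode the receptors of tumor necrosis factor, were higher by 1.01 and 1.49, and Ripk1, a kinase that acts below the Tnfrsf1a receptor, by 2.52. Pmaip1 and Tnfrsf10b, which promote cell death, were also called higher. The call of Pmaip1 was lost on leaving out any of 4 arrays and that of Tnfrsf10b without control replicate 2. The lower members all encode mitochondrial proteins, namely Ppif, cyclophilin D of the permeability transition pore, with 7.77, 7.70 and 7.39 in IRI and 9.62, 10.14 and 10.51 in control, Aifm1 (-1.38) and Htra2 (-0.25). Whole-array quantile normalization gave 9 higher and 8 lower, and that of the protein-coding genes 12 and 3.

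Genes of the response to low oxygen and of glycolysis did not move together, with 7 of 32 higher and 5 lower. That is 21.9% and 15.6%, against 23.0% and 22.2% of protein-coding genes with a control mean of 8 to 10. Egln3, an oxygen-sensing hydroxylase, had 7.74, 9.17 and 8.10 in IRI and 11.46, 11.60 and 12.44 in control. Pfkm and Eno3, muscle isoforms of glycolysis, were lower, at -1.27 and -1.28, and Pfkfb3, an activator of glycolysis, was higher by 1.57. Vegfa, the vascular endothelial growth factor, was higher by 0.84 as deposited and by 0.47 after quantile normalization of the protein-coding genes but stood at -1.33 after that of whole arrays. Without control replicate 2 the higher count was 4, and the normalizations gave 1 higher and 20 lower for whole arrays and 5 and 12 for the protein-coding genes.

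Of 25 heat shock and unfolded protein response genes 4 were higher and 1 lower, and 2 were higher without IRI replicate 3 or control replicate 2. The 4 and 1 are 16% and 4%, below the 22.4% and 16.5% of protein-coding genes with a control mean of 6 to 8. The median control mean of the list was 7.93. Hsph1, a cochaperone, had 8.68, 10.07 and 13.80 in IRI and 6.86, 7.19 and 6.66 in control, and its difference of 3.94 did not pass the test (adjusted p = 0.125 from limma). IRI replicate 3 was far above the other IRI arrays for Hsph1. Atf4 was among the higher members, by 1.29, a call lost without control replicate 3. Hsf1, the master factor of the heat shock response, was lower, at -0.87. It had 5.03, 4.79 and 4.91 in IRI, with 1 array above the background limit, and 5.71, 5.65 and 5.96 in control. Whole-array quantile normalization gave 1 heat shock gene higher and 15 lower, and that of the protein-coding genes 3 and 7. Of 26 antioxidant and metal response genes 5 were higher and 5 lower as deposited, 4 and 16 after whole-array quantile normalization and 5 and 9 after that of the protein-coding genes. As deposited that is 19.2% in each direction, against 22.4% and 16.5% of protein-coding genes with a control mean of 6 to 8. Txnrd1 and Gclc, of thioredoxin and glutathione supply and both targets of NRF2, were higher by 2.34 and 1.75, while the peroxidases Gpx3, Gpx4, Prdx2 and Prdx3 were lower, at -0.95, -0.49, -0.76 and -1.55. Hmox1, heme oxygenase, had 7.89, 6.19 and 6.20 in IRI and 4.92, 5.25 and 5.08 in control (difference 1.68, adjusted p = 0.0422 from limma), and its adjusted p reached 0.11 when a control array was left out.

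**Figure D5:**
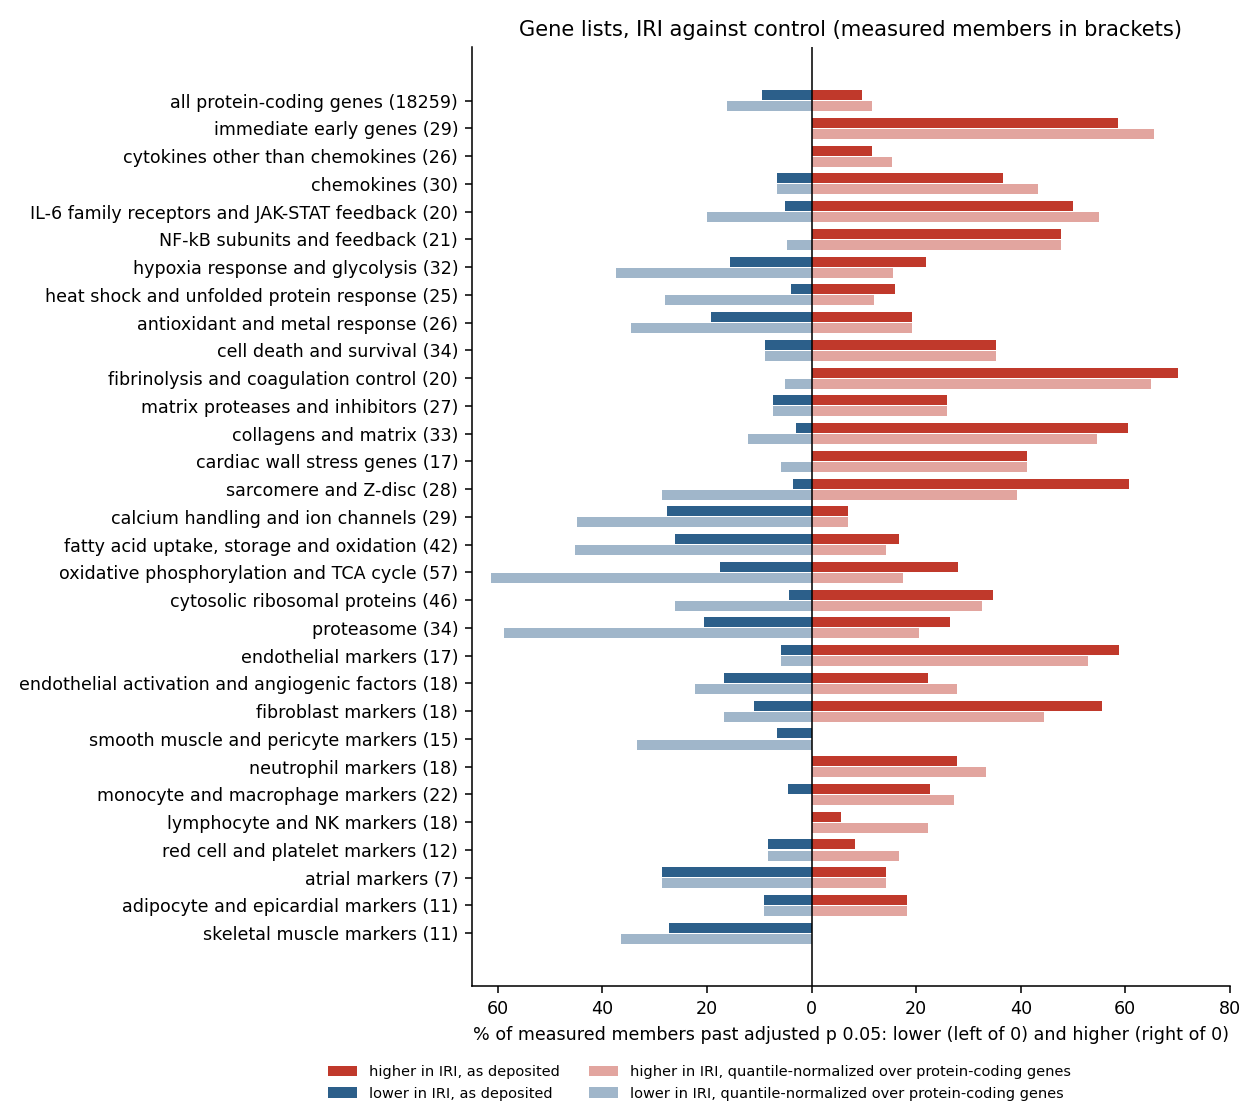
Share of the measured members of each gene list (number in brackets) that were lower (left of 0) and higher (right of 0) in IRI at an adjusted p under 0.05, in percent, as deposited (dark bars) and after quantile normalization of the protein-coding genes alone (pale bars). Immediate early, fibrinolysis and endothelial genes extend mainly to the right under both scalings, and oxidative phosphorylation and proteasome genes extend much farther to the left under the second.

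Several of the largest differences fell outside these lists. B2m, the light chain of class I antigen-presenting molecules, had 17.45 on each IRI array and 10.32, 9.72 and 8.62 on the control arrays. Depp1, a target of FOXO factors, had 13.38, 13.96 and 13.43 in IRI, against 6.00, 6.59 and 5.76 in control, a 177-fold higher signal (difference 7.47, standard error 0.25, adjusted p = 9.21e-07 from limma). Tmem252 had 13.99, 12.39 and 10.88 in IRI and 4.62, 5.33 and 4.89 in control. Akr1c15, an aldo-keto reductase, was higher by at least 7.08 on the probe set used, with no control array above the background limit, but a second probe set had means of 4.38 in IRI and 4.61 in control, both below that limit. Palldl1, named for its likeness to palladin, was higher by 7.24 on the probe set used, but a second probe set differed by 0.50 and did not pass the test.

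Among the largest falls, Sar1b, a GTPase that forms the vesicles leaving the endoplasmic reticulum, had 9.88, 10.66 and 10.83 in IRI, against 16.01, 15.76 and 15.76 in control, a 41.8-fold lower signal (difference -5.39, standard error 0.23, adjusted p = 2.79e-06 from limma). Ciao2a, of the cytosolic assembly of iron-sulfur proteins, had 6.21, 6.79 and 6.55 in IRI, against 11.24, 10.45 and 10.97 in control. Cops6, of the COP9 signalosome, had 8.35, 8.29 and 8.24 in IRI, against 12.66, 12.27 and 11.79 in control. In all 3 genes the groups were separated by several times their own spread. Tcea3, a transcription elongation factor, was lower, at -3.96. Atp5mc1l1, Atp5mc1l2, Rpl10al3 and Tmem258l4, at -12.22, -4.46, -5.58 and -5.52, are annotated as near-copies of other genes, so their signals may include those of the genes they resemble.

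A set of bright genes was higher as deposited and lower after whole-array quantile normalization, and the genes with the largest such turn were Dcn, Sparcl1, Pam, Hba-a1 and Nexn. Sparcl1, a matricellular protein, had 15.50, 15.48 and 15.58 in IRI and 11.69, 11.33 and 10.61 in control, a difference of 4.31 that became -2.999 for whole arrays and 3.62 for the protein-coding genes. A second probe set of Sparcl1 had a difference of 0.08 and did not pass the test. Hba-a1, an alpha globin of red cells, had 17.47 on each IRI array and 13.55, 12.18 and 12.38 on the control arrays, a difference of 4.77 that became -2.21 and 3.90. Pam, which amidates peptide hormones, and Nexn, an actin-binding protein of the Z-disc, differed by 4.78 and 3.88 as deposited, by -2.35 and -2.94 for whole arrays and by 4.03 and 3.15 for the protein-coding genes. In these 5 genes every IRI array stood above every control array as deposited, and quantile normalization of the protein-coding genes alone turned none of them.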

How the data were processed

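Left ventricular RNA of the 3 groups was hybridized to Affymetrix arrays, which the methods name as Rat Gene 2.0 ST while the series text names a human array. The probe identifiers carry rat names. The deposited values are log2 signals, for which the methods name robust multichip analysis (RMA), and no array was normalized again for the main comparison. As deposited the arrays did not share 1 distribution, with standard deviations of 3.15 on each IRI array and 1.98 to 2.12 on the control arrays. No source used here names the genome build behind the annotation.

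Of 65526 rows, 123 control probe sets were left out. A single symbol was held by 22070 probe sets, several by 478 and none by 42855, from GEO's platform annotation, with 124 symbols updated and 13 unmatched in a RefSeq table of assembly GRCr8. For each gene with 1 symbol, the probe set with the highest mean over the 9 arrays was used. All 9 arrays in 3 groups were fitted with limma 3.58.1 in R 4.3.3 for IRI minus control, with Benjamini-Hochberg adjustment over the 65403 probe sets. Tables and plots were made with Python 3.11.15, numpy 2.4.6, scipy 1.17.1, pandas 2.3.3 and matplotlib 3.10.9, and the fit was tested on simulated data. Probe sets below 4.93 on every array of a group were taken as not above background, and the difference is then a lower bound set against that limit. Tests count arrays, 3 per group, which limits the precision.

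Members and lists were chosen with earlier results of these data known. Genes were named as the 15 largest rises and 15 largest falls among protein-coding genes past the threshold, under 19 on all arrays, at a mean of at least 6 in the higher group, without overlap and with the same sign after whole-array quantile normalization and centring. To these came up to 3 members per list and direction by p, a fixed list and the 5 largest turns under quantile normalization. Other genes, such as Jun, Tnfaip3, Ttn, Cd36 and COX1 to COX3, were chosen after their values were seen. Alternatives were other normalizations, filters, weights, the methods' t-test, a replicate block and leaving out each array.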

Additional observations from a re-analysis of the deposited data

Results flagged for a closer look

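Among the 123 control probe sets, which no comparison used, 1 was higher in IRI without overlap. ERCC-00014, named as a spiked-in control RNA, had a mean log2 signal of 17.6 in IRI, with a range of 17.2 to 18.4, and of 16.6 in control, with a range of 16.1 to 17.1. Another 20 control probe sets were lower in IRI without overlap. Of the 65403 probe sets compared, 14.8% were higher and 14.6% lower without overlap.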

How the results depend on the processing

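Over all probe sets 6509 were higher and 4094 lower in IRI. The lower count was 8946 after quantile normalization of the 9 arrays, 7212 after that of the 6 arrays, where the higher count was 4040, 2301 at a group mean of at least 6, 1828 with the methods' t-test after Benjamini-Hochberg adjustment and 1275 at a log2 difference of at least 1. For protein-coding genes (1760 and 1729) the higher and lower counts were 847 and 4589, 673 and 3755 in the 9 and 6 arrays, 1081 and 902 with the t-test and 793 and 422 at a difference of at least 1, and the lower count was 1123 after centring, 1133 at a mean of at least 6 and 2965 after quantile normalization of protein-coding genes alone, a setting chosen after seeing the data. Leaving out 1 array gave 5627 to 6120 probe sets higher and 2941 to 4469 lower, and 1419 to 1633 and 1315 to 1814 protein-coding genes. Replicate numbers did not pair the arrays (correlations of deviations 0.037, 0.017 and -0.005), and the replicate block gave 5807 higher and 3353 lower.

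Quantile normalization of the 9 and the 6 arrays turned Vegfa (-1.33, -1.18), Nppa (-5.20, -4.73), Myh7 (-1.39, -2.08), Tnnt2 (-3.44, -4.41), Cpt1b (-3.09, -2.67), Col1a1 (-0.50, -0.47), Cd68 (-0.065, -0.062), Dcn (-1.14, -1.21), Sparcl1 (-2.999, -2.49), Pam (-2.35, -1.999), Hba-a1 (-2.21, -2.15) and Nexn (-2.94, -2.68). That of protein-coding genes alone turned Nppa (-0.29), Tnnt2 (-1.17), Cpt1b (-0.19) and Col1a1 (-0.17), none of which passed the test as deposited. The cause was not tested. In 8224 protein-coding genes no IRI or control array was above background, and a signal of 19 or more gives only a bound. Of 60 list counts, 40 moved by over 1.5 times after quantile normalization of the 9 arrays, 20 after that of protein-coding genes, 7 after centring and 10 to 13 without 1 array.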
